A study of Rattus norvegicus with 6 samples.

Results

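The genes described here form a conserved, gene-dense block of rat chromosome 9 that runs from Tns1 to Slc4a3 and holds Resp18, Des and Inha. The 47 members were taken by name, and all probe sets whose gene symbol is a member were used. Of the 47 genes, 44 had a probe set on the Affymetrix Rat Genome 230 2.0 array, with 60 probe sets among the 31099 of the array. Slc11a1, Ttll4 and Gpbar1 had no probe set under their symbol and were not analysed here. Of the 60 probe sets, 42 (35 genes) passed a filter on the mean signal over all 6 arrays, the 40th percentile, at a signal of about 25. The 9 genes with no probe set above it were Cxcr1, Cxcr2, Plcd4, Stk36, Prkag3, Wnt6, Wnt10a, Cdk5r2 and Asic4.

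The study set kidneys of the Dahl salt-sensitive rat, called S, against those of a congenic strain in which a piece of chromosome 9 from the R strain replaces the S version on an otherwise S genome. Dietary salt makes the S rat hypertensive. Outside the segment the congenic rats keep its background. All rats were males of 53 days, born on one day, weaned at 30 days and then fed a 2% salt diet. Each strain had 6 rats, whose RNA was pooled by 2 rats into 3 samples, and each pool was hybridised to 1 array. Pooling averages over rats, so the spread between the 3 arrays of a strain is not that between single animals, which was not measured.

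A congenic strain isolates the effect of one chromosome segment by backcrossing it from a donor into a recipient strain, so that a difference between the strains can be traced to the segment and to what it controls. A gene inside such a segment can differ through variants in or near it, while genes elsewhere differ through what the segment acts on. The order of genes in this block is shared with mouse and human, and the block joins genes of very different kinds. It holds muscle and cytoskeletal proteins, secreted signals of the Wnt and hedgehog families, a hormone subunit, secretory granule proteins, transporters and general housekeeping enzymes.

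The title of the study puts the congenic segment at less than 81.8 kb, and its position was not given in the sources used here. By RefSeq transcription starts on assembly GRCr8, available for 42 of the 47 members, the block is far longer: its starts spread over 1307 kb, and those of Resp18 and Inha lie 223 kb apart. No window of 81.8 kb held more than 7 of the 42 starts. At most a small part of the block can therefore be within a segment of that length, if the strains have the same order and spacing as this assembly. Whether any member lies in the segment was not determined.

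Upstream stretches of 3 genes are printed because Resp18 and Inha mark the block and Des had the smallest p-value among its genes. Each is the 250 bases before the RefSeq start on GRCr8, the assembly of a Brown Norway rat, so these letters are those of neither the S nor the R strain. Capitals mark matches, on either strand, to 6 motifs: the TATA box as TATAAA, the CCAAT box under that spelling, the GC box core as GGGCGG, the cAMP response element as TGACGTCA, its shortened variant as TGCGTCA, and the CArG box of muscle genes by its usual pattern. None of these overlap in the stretches printed.
Resp18 promoter, chr9:84220187-84220436, minus strand: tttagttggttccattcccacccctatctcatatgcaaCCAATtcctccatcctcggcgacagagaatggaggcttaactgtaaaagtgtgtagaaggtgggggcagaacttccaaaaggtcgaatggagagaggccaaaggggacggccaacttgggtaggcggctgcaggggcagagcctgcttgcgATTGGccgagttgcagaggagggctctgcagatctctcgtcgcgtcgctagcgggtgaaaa
Inha promoter, chr9:84442859-84443108, plus strand: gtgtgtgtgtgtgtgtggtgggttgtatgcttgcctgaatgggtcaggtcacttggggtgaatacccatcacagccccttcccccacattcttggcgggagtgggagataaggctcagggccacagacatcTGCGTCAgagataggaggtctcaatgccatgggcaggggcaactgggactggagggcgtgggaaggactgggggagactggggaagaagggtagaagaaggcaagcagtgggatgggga
Des promoter, chr9:84299376-84299625, plus strand: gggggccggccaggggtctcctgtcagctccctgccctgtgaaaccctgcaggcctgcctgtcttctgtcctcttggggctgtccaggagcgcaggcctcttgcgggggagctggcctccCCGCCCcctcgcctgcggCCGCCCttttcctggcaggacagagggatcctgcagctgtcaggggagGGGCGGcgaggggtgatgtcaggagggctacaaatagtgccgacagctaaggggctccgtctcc

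In the Resp18 stretch the capitals are 2 CCAAT matches, a motif held by 34.0% of all 33469 RefSeq promoter stretches of this length and by 12 of the 42 from the block. The Inha stretch holds TGCGTCA, a variant of the cAMP response element, which 1.66% of all stretches and 3 of the 42 (Inha, Ptprn and Dnajb2) share. The Des stretch has 3 matches to GGGCGG, the core of the GC box, found in 30.5% of all stretches and in 23 of the 42. TATAAA occurred in 0 of the 42 and in 12.9% of all. TGACGTCA was found in 2 of the 42 against 1.59% of all, and the CArG box in 1 of the 42 against 1.5%. The median GC content was 60.2% over the 42 and 51.2% over all stretches. No filter by gene type was applied to the 33469 stretches, whereas each member entered by a single stretch. The sets may therefore differ in kind, and these shares are not shown to be traits of the block. A match describes these letters and is no evidence of a factor's binding.

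No gene of the block passed the test between the strains. Of the 42 tested probe sets 0 passed limma's test at an adjusted p under 0.05, against 0 of 18625 (0%) over the whole array, and the smallest adjusted p of a member was 0.746. At an unadjusted p under 0.05 there was 1 member probe set, that of Des, or 2.38%, against 6.61% of all tested probe sets. The groups did not overlap for 4 of the 42 (9.52%), against 12.5% of all. The median log2 fold change, congenic over S and on the scale of signal + 16 as in all values here, was -0.012 over the 42 and -0.0036 over all tested probe sets. Of the 42 values 24 were negative and 18 positive.

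Removing single arrays changed the count of 1 probe set at an unadjusted p under 0.05. It was 0 without S replicate 2 or without congenic replicate 2, 3 without S replicate 3 (both tested probe sets of Aamp and 1 of Arpc2), and 2 without congenic replicate 1 (Chpf and Dnajb2) or congenic replicate 3 (Des and Tuba4a). Without S replicate 1 it was 1, that of Obsl1. In none of these fits did a member pass the adjusted threshold. The share of all tested probe sets at that unadjusted p was not taken in them. Their counts are therefore no result about the block or the genes named.

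The size of difference that these arrays can still hide may be read from the 95% intervals. For 33 of the 35 tested genes the interval lay within a 1.5-fold change in either direction. Ihh, at -0.15 to 0.75, and Speg, at -0.63 to 0.22, were the exceptions. The added constant shrinks the folds of dim genes, so changes of their signal itself are bounded less tightly. Slc4a3 (mean 38.1 in S) and Tmem198 (35.7), for example, both had a lower bound of -0.51.

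**Figure D1:**
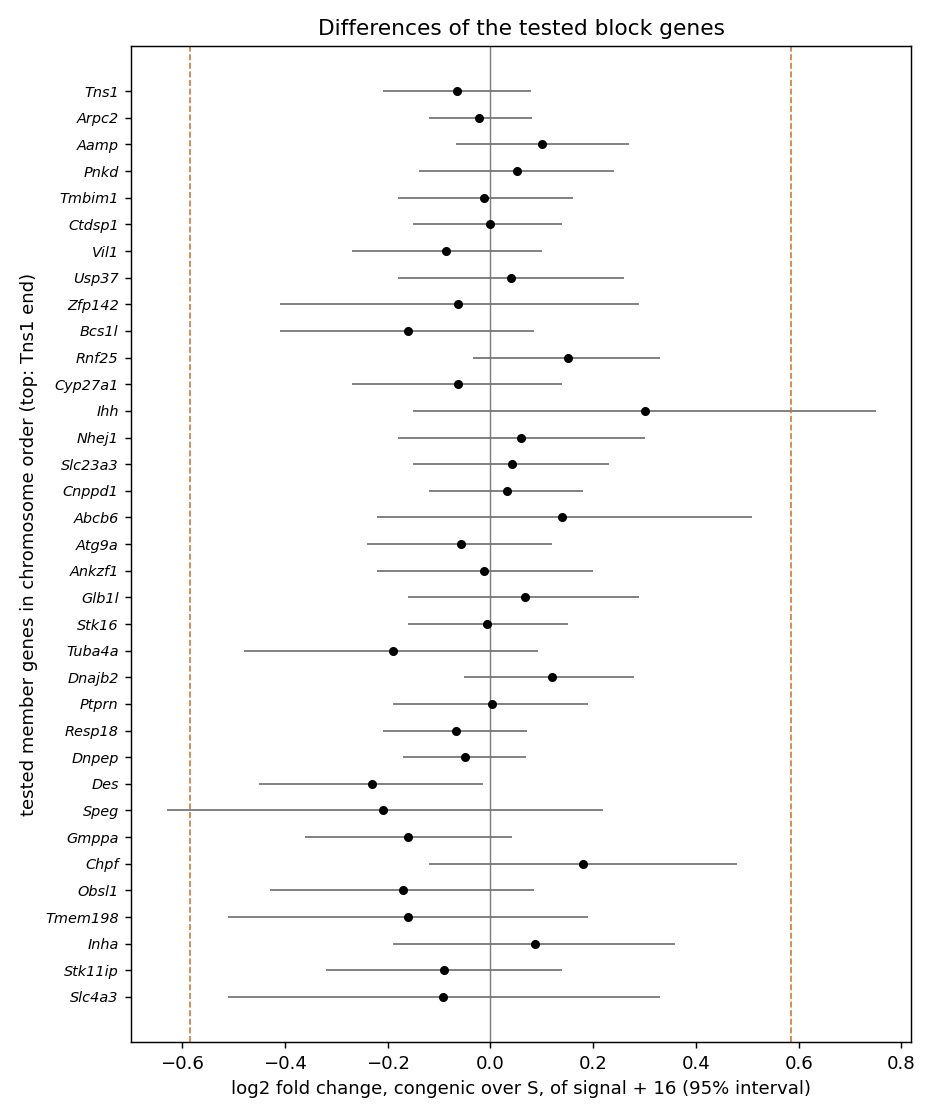
Log2 fold change of signal + 16 (x axis, congenic over S) for the 35 tested genes, shown by the brightest probe set of each gene, in chromosome order from the Tns1 end (top) to the Slc4a3 end. Bars are 95% intervals of the limma fit with 3 arrays per strain, and dashed lines mark a 1.5-fold change; only the interval of Des, -0.45 to -0.014, leaves out 0, and those of Ihh and Speg cross a dashed line.

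Among the neuroendocrine and hormone genes, Resp18 encodes a protein of the secretory pathway of endocrine and nerve cells. Its signal was 583, 583 and 572 in the 3 S pools and 521, 565 and 573 in the 3 congenic pools. The groups overlapped only at the edge, with congenic replicate 1 the lowest. The means were 579 ± 6.05 and 553 ± 28.1 (SD, n = 3 per strain), or a log2 fold change of -0.067 (SE 0.062, 95% interval -0.21 to 0.072, limma adjusted p = 0.853).

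Inha, the alpha subunit of inhibin, which opposes activin in the gonads and is also made in the adrenal cortex, measured 44.8, 48.6 and 53.4 in the 3 S pools and 53.3, 60.8 and 45.3 in the 3 congenic pools. The congenic values spanned nearly the whole range of both groups. The log2 fold change was 0.087 (SE 0.13, 95% interval -0.19 to 0.36, limma adjusted p = 0.911), and with single arrays left out it ranged from 0.0079 to 0.17. Ptprn, a transmembrane protein of dense-core granules and a known autoantigen of type 1 diabetes, averaged 349 ± 35.8 in the S and 349 ± 21.9 in the congenic pools (SD, n = 3 per strain). Cdk5r2, a neuronal activator of the kinase Cdk5, had 3 probe sets, none above the filter.

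The partners of these genes gave no called difference either. For scale in this and later lists, 6.61% of all tested probe sets had an unadjusted p under 0.05. The groups did not overlap for 12.5% of them. Of 13 inhibin and activin partners 12 were measured and 10 tested, 6 higher and 4 lower in congenic pools, with 0 past limma's adjusted threshold and 1 at an unadjusted p under 0.05. That one was Inhbb, an activin and inhibin beta subunit, at 50.6 ± 12.4 in the S and 68.5 ± 7.40 in the congenic pools (SD, n = 3 per strain), or a log2 fold change of 0.36 (adjusted p = 0.746), with all congenic values above all S values. Smad2, which carries the activin signal to the nucleus, was next at 0.19 (adjusted p = 0.780). Of 11 dense-core granule genes 10 were measured and only 3 tested, with 0 past the adjusted threshold and 1 at an unadjusted p under 0.05. That one was Cpe, the carboxypeptidase that trims prohormones, with all congenic values above all S values and a log2 fold change of 0.17 (adjusted p = 0.746). Pam, which amidates peptides, was at -0.055 (adjusted p = 0.869). Among those below the filter, the granins Chga and Chgb stood out on congenic replicate 3, Chga at 52.6 against at most 1.08 on the other 5 arrays and Chgb at 127.5 against at most 13.4. Scg2, another granin, was at 36.0 there and at most 12.6 elsewhere. On the same array Resp18 was at 573 and Ptprn at 367, both inside the range of the S arrays.

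The cytoskeletal and muscle group has 8 genes, of which 7 were tested. By the brightest probe set of each, all 7 had negative log2 fold changes, with a median of -0.174, whereas 51.3% of all tested probe sets were negative. Arpc2 is counted among the 7 although its 2 tested probe sets differed in sign. The 3 tested signalling enzymes were also all negative, with a median of -0.006. None of the 7 passed limma's adjusted threshold. These genes were grouped by their known function, with earlier results of these data known, and no test of the group was made. All 7 stayed negative with each array left out in turn, with a median between -0.227 (without S replicate 1) and -0.080 (without S replicate 2). These fits reuse most of the same arrays, so they cannot show whether the signs would recur in other rats. Without congenic replicates 1 and 3 together, the arrays that carry transcripts of other tissues as given further on, 5 of 7 were negative and the median was -0.026.

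Des encodes desmin, the intermediate filament of muscle, which in the kidney marks vascular smooth muscle and injured glomerular cells. Its signal was 77.4, 76.6 and 75.5 in the 3 S pools and 61.4, 60.1 and 66.5 in the 3 congenic pools. The S values lay close together, and every congenic value was below them. The means were 76.5 ± 0.976 and 62.7 ± 3.34 (SD, n = 3 per strain), or a log2 fold change of -0.23 (SE 0.099, 95% interval -0.45 to -0.014, unadjusted p = 0.039, limma adjusted p = 0.746). Under the alternatives run, the log2 fold change of Des ranged from -0.28 to -0.15. The smallest unadjusted p was 0.00291, in the linear model without moderation (adjusted p = 0.733). In limma it was 0.0116 without the intensity trend (adjusted p = 0.743) and 0.0296 with arrays weighted by quality (adjusted p = 0.537). Its unadjusted p was above 0.05 with the replicate number as a block (0.0641) and without S replicate 1 (0.0735), S replicate 2 (0.0825), S replicate 3 (0.0633), congenic replicate 1 (0.0823) or congenic replicate 2 (0.101). It was 0.101 also without congenic replicates 1 and 3 together.

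Obsl1, an obscurin-like protein that links cytoskeletal filaments, had 2 tested probe sets. The brighter read 71.9, 89.8 and 89.8 in the 3 S pools and 65.2, 71.9 and 79.9 in the 3 congenic pools, a log2 fold change of -0.17 (SE 0.12, adjusted p = 0.806). In the other the groups did not overlap, with 61.6, 60.9 and 67.4 for S and 51.6, 57.8 and 60.2 for the congenic strain, and a log2 fold change of -0.13 (adjusted p = 0.837). Both probe sets thus pointed the same way without passing the test. Without S replicate 1 the brighter one was at -0.26.

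Tuba4a, an alpha-tubulin, varied more among congenic arrays than between strains. It measured 807, 961 and 881 in the 3 S pools and 740, 632 and 967 in the 3 congenic pools, a log2 fold change of -0.19 (SE 0.13, adjusted p = 0.805). Congenic replicate 3, the highest of all 6, sat apart from the other congenic arrays, and without it the log2 fold change was -0.36 (adjusted p = 0.725). Without congenic replicate 2 it was -0.057.

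Tns1, tensin 1, ties actin to integrins at focal adhesions. Its brighter probe set read 2050, 2107 and 2309 in the 3 S pools and 1975, 2218 and 1989 in the 3 congenic pools. The ranges overlapped, and the log2 fold change was -0.065 (SE 0.065, adjusted p = 0.865), with -0.077 in the second probe set. Without congenic replicate 2 the value was -0.12, and without S replicate 3 it was -0.014. Speg, a muscle kinase, had a log2 fold change of -0.21, Vil1, the villin of the proximal tubule brush border, of -0.086, and Arpc2, a subunit of the actin-nucleating Arp2/3 complex, of -0.022 (0.093 in its dimmer probe set, which was 0.22 without S replicate 3).

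Genes that work with desmin in smooth muscle were measured for comparison. All 10 had a probe set and 8 were tested. Of the 8, 7 had negative log2 fold changes, with a median of -0.046, while 51.3% of all tested probe sets were negative. In the list 0 passed the adjusted threshold and 1 had an unadjusted p under 0.05, beside 6.61% of all tested probe sets. That one was Myh11, smooth muscle myosin, at 248 ± 37.3 in the S and 200 ± 21.3 in the congenic pools (SD, n = 3 per strain), or a log2 fold change of -0.28 (adjusted p = 0.746). Acta2, smooth muscle actin, was at 0.22 (adjusted p = 0.794). Below the filter, Lmod1 was higher on every congenic array (means 12.5 in S and 17.2 in congenic pools), and Cnn1 was lower with overlap (27.7 and 21.6). The summed signal of the 10 genes ran from 2997 to 3532 in S and from 2927 to 3303 in congenic pools. That sum mostly follows its brightest genes, Vim (means 1203 in S and 1149 in congenic pools) and Mylk (1087 and 1076). It is thus no measure of the dimmer muscle genes. In a whole kidney, fewer cells of a type and less RNA per cell cannot be told apart. Of 10 brush border genes that accompany villin, 9 were measured and tested, 4 higher and 5 lower, with a median of -0.001, 0 past the threshold, 0 at an unadjusted p under 0.05, and Ush1c at -0.14 and Espn at -0.12 as the 2 with the smallest p.

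**Figure D2:**
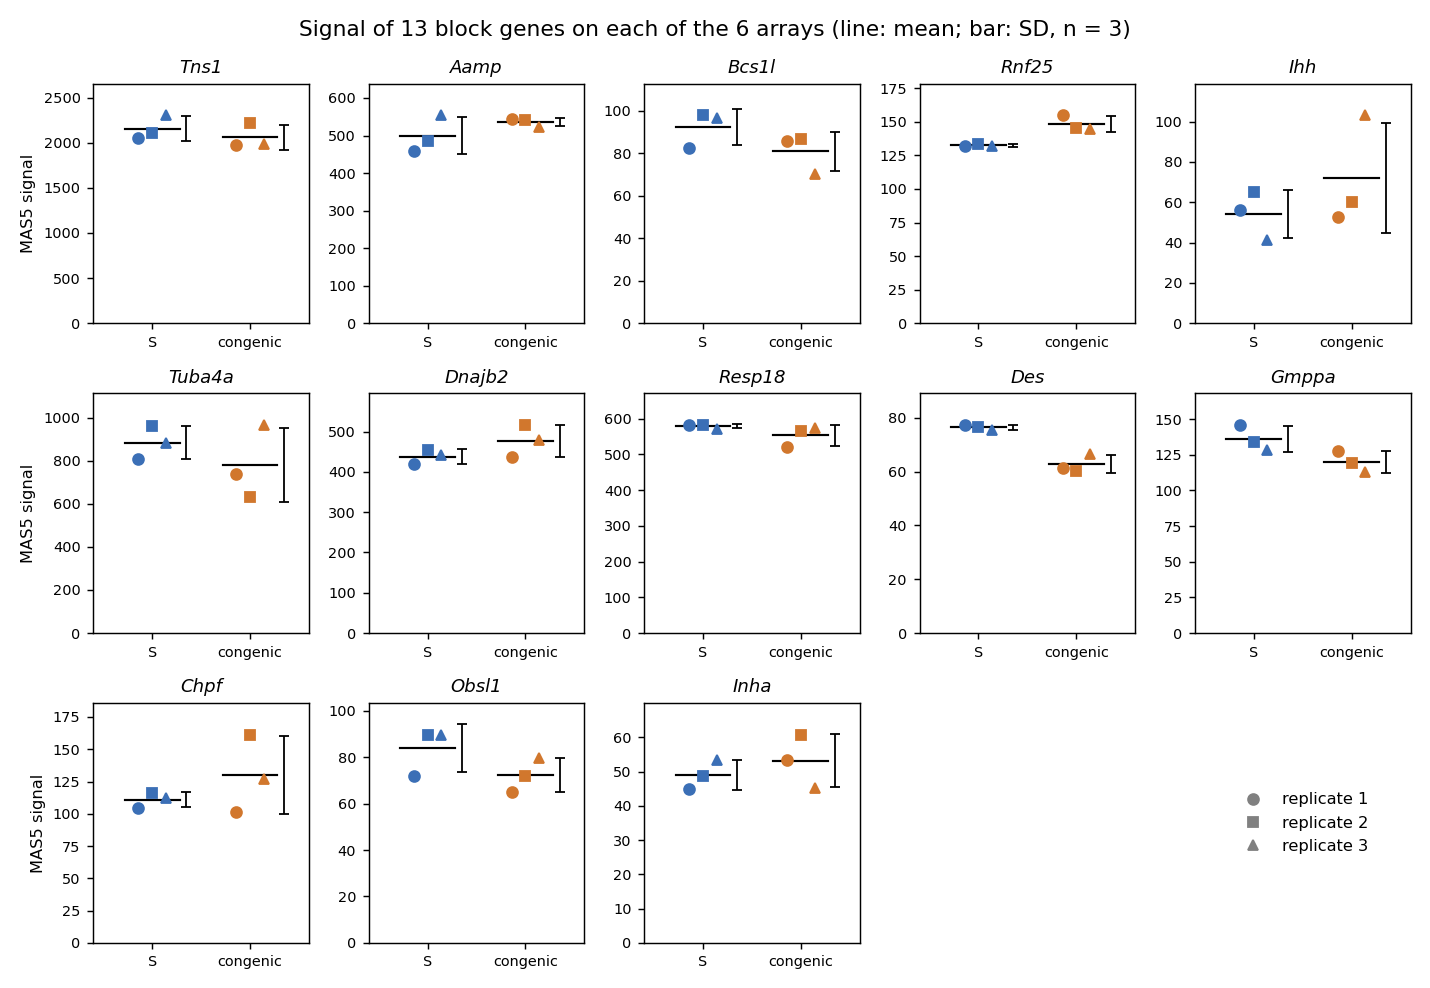
MAS5 signal (y axis, linear, from 0) of 13 genes of the block on the 3 S and 3 congenic arrays, 1 marker shape per replicate number, with the mean as a line and the SD as a bar. Des and Gmppa are lower and Rnf25 higher on every congenic array than on any S array, and the other 10 genes overlap.

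Among the secreted signals and their machinery, only Ihh was above the filter. Ihh, Indian hedgehog, which in the kidney is made by the proximal tubule, measured 56.1, 64.9 and 41.4 in the 3 S pools and 52.8, 60.2 and 103 in the 3 congenic pools. Of the congenic arrays only replicate 3 lay above the S range. The log2 fold change was 0.30 (SE 0.20, adjusted p = 0.808) with it and 0.061 without it. Without congenic replicate 1 it was 0.46, and without S replicate 3 it was 0.16. Wnt6 and Wnt10a, both Wnt ligands, and Stk36, a kinase related to the hedgehog regulator Fused, were below the filter, with mean signals no higher than 22.9 for any of the 9 genes so placed. Of 10 hedgehog pathway genes 7 were measured and 2 tested, Smo, the signal transducer, at 0.10 (adjusted p = 0.910) and Sufu, its inhibitor downstream, at -0.37 (adjusted p = 0.746). Of the 2, 0 passed the adjusted threshold, and Sufu had an unadjusted p of 0.0343 with the groups not overlapping.

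Transporters and receptors showed no called difference. Abcb6, a porphyrin transporter, measured 152, 178 and 197 in the 3 S pools and 165, 166 and 268 in the 3 congenic pools, and again congenic replicate 3 was the highest. Its log2 fold change was 0.14 (SE 0.16, adjusted p = 0.886). Slc23a3, an orphan member of the ascorbate transporter family, had a log2 fold change of 0.041, Tmbim1 of -0.012, Slc4a3, an anion exchanger, of -0.092 and Tmem198 of -0.16. Cxcr1 and Cxcr2, the interleukin-8 receptors of neutrophils, had signals of 0.657 to 14.8 and 1.02 to 3.84. The 3 measured neutrophil markers were likewise below the filter and summed to 39.5 to 46.8 in S and 37.9 to 48.6 in congenic pools.

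Of the metabolic enzymes, all 7 were tested, 3 higher and 4 lower, with a median of -0.050. Gmppa, a regulatory subunit for the making of GDP-mannose, measured 146, 134 and 129 in the 3 S pools and 128, 119 and 113 in the 3 congenic pools. The groups did not overlap, by a margin of less than 1 unit of signal. The log2 fold change was -0.16 (SE 0.091, 95% interval -0.36 to 0.041, adjusted p = 0.782). Bcs1l, an assembly factor of respiratory complex III, stood at 82.7, 98.1 and 96.6 for S and 85.9, 86.6 and 70.4 for the congenic strain, a log2 fold change of -0.16 (SE 0.11, adjusted p = 0.809), which was -0.082 without congenic replicate 3. Chpf, a chondroitin-polymerising enzyme, ran the other way, at 105, 116 and 112 for S and 101, 161 and 127 for the congenic strain. Its log2 fold change of 0.18 (SE 0.14, adjusted p = 0.824) was 0.33 without congenic replicate 1 and 0.028 without congenic replicate 2.

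Cyp27a1, the mitochondrial sterol 27-hydroxylase of bile acid synthesis, averaged 153 ± 13.2 in the S and 146 ± 7.73 in the congenic pools (SD, n = 3 per strain), or a log2 fold change of -0.064 (adjusted p = 0.910). Dnpep, an aspartyl aminopeptidase, averaged 1011 ± 8.88 and 976 ± 32.9 (SD, n = 3 per strain), or a log2 fold change of -0.050 with the narrow interval of -0.17 to 0.070. Of 9 bile acid and sterol partners 6 were measured and 4 tested, 2 in each direction, with 0 past the adjusted threshold and 0 at an unadjusted p under 0.05. The 2 with the smallest p were the bile acid exporter subunit Slc51a at -0.31 (adjusted p = 0.782) and Fdx1, the electron donor of mitochondrial P450 enzymes, at 0.34 (adjusted p = 0.824). Fdx1 measured 1588 on congenic replicate 3 and 654 to 707 on the other 5 arrays. Congenic replicate 3 is the array with adrenal cortex transcripts, as given further on. The part of those transcripts in the value of Fdx1 was not tested.

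The 9 genes of protein turnover, DNA repair and regulation were all tested, 6 higher and 3 lower, with a median of 0.040. Rnf25, a RING-type ubiquitin ligase, measured 132, 134 and 132 in the 3 S pools and 155, 145 and 145 in the 3 congenic pools. Every congenic value was above every S value, and the S arrays differed by less than 2 units of signal. The means were 132 ± 1.12 and 148 ± 5.94 (SD, n = 3 per strain), or a log2 fold change of 0.15 (SE 0.081, 95% interval -0.034 to 0.33, adjusted p = 0.782). Its p in a linear model without moderation, where each gene has only its own 6 values, was 0.00872 (adjusted p = 0.782).

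Dnajb2, a co-chaperone that delivers proteins to the proteasome, measured 420, 454 and 441 for S and 436, 517 and 478 for the congenic strain, a log2 fold change of 0.12 (SE 0.076, adjusted p = 0.800). This was 0.18 without congenic replicate 1 and 0.058 without congenic replicate 2. Aamp, an angio-associated WD-repeat protein, read 459, 485 and 555 for S and 543, 542 and 522 for the congenic strain. S replicate 3 was the highest of the 6, and the log2 fold change of 0.10 (SE 0.077, adjusted p = 0.821) was 0.18 without it and 0.045 without S replicate 1. The second tested probe set of Aamp was at 0.18. Usp37, Nhej1, Cnppd1, Atg9a, Ankzf1 and Zfp142 had log2 fold changes from -0.063 to 0.059.

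Of the signalling enzymes Ctdsp1, a small phosphatase of RNA polymerase II, averaged 718 ± 37.2 in the S and 718 ± 36.5 in the congenic pools (SD, n = 3 per strain), with an interval of -0.15 to 0.14. Stk16 had a log2 fold change of -0.0064 and Stk11ip of -0.091. Prkag3, the muscle subunit of AMP-activated kinase, and Plcd4, a phospholipase C, were below the filter.

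The 7 genes with 2 tested probe sets give a check of 1 probe set by another. In Aamp, Obsl1 and Tns1 both had the same sign. In Arpc2, Atg9a, Ctdsp1 and Pnkd the signs differed, with values between -0.058 and 0.14, so the direction of these genes is not settled.

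Members that lie head to head had values of like or of opposite sign. In the block 5 pairs of members are divergent, with starts within 1000 bases of each other on opposite strands: Zfp142 and Bcs1l, Rnf25 and Stk36, Glb1l and Stk16, Chpf and Tmem198, and Obsl1 and Inha. Both genes were tested in all but the pair with Stk36. Zfp142 and Bcs1l were both negative, at -0.063 and -0.16. Glb1l was at 0.067 with Stk16 at -0.0064, Chpf at 0.18 with Tmem198 at -0.16, and Obsl1 at -0.17 with Inha at 0.087. None of these 8 values passed the adjusted threshold.

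Genes around and between the members gave no called difference either. Of the 11 protein-coding genes that RefSeq places between members, 3 had tested probe sets. Cnot9, a subunit of the CCR4-NOT deadenylase complex next to Usp37, averaged 181 for S and 154 for the congenic strain, a log2 fold change of -0.21 (unadjusted p = 0.0235, limma adjusted p = 0.737), with the groups not overlapping. The 10 genes beyond Tns1 gave 9 tested probe sets of 6 genes and the 10 beyond Slc4a3 gave 6 of 4 genes, and 0 of these 15 had an unadjusted p under 0.05. Over the other 497 tested probe sets of chromosome 9, 27 (5.43%) had an unadjusted p under 0.05, and the median log2 fold change was -0.0050.

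Transcripts of other tissues were present on 2 arrays. The summed signal of 6 adrenal cortex markers was 137 to 154 on the S arrays, 152 and 158 on congenic replicates 1 and 2 and 5541 on congenic replicate 3. That of 5 adrenal medulla markers, which include Chga and Chgb, was 37.1 to 44.5 on the other 5 arrays and 300.9 on congenic replicate 3, and each of the 5 was highest there. The sum of 7 hepatocyte markers was 119 to 204 on the S arrays, 9970 on congenic replicate 1 and 152 and 147 on the other 2 congenic arrays. Ihh and Abcb6 were highest on congenic replicate 3. In all, 7 of the 42 member probe sets were highest there, close to the 15.4% of all tested probe sets. Inha, which the adrenal cortex makes, was at 45.3 on that array, the lowest of the congenic arrays. The part of the adrenal transcripts in the values of Ihh, Abcb6 and Inha was not tested. Without congenic replicates 1 and 3 together, with only congenic replicate 2 left and the error estimated within S alone, the median over the 42 probe sets was 0.011, Des was at -0.28, Rnf25 at 0.12, Gmppa at -0.17, Resp18 at -0.034, Inha at 0.24 and Tns1 at 0.043. In that fit Tuba4a was at -0.47 instead of -0.19, Chpf at 0.48 instead of 0.18 and Dnajb2 at 0.23 instead of 0.12. Ihh was at 0.13 instead of 0.30 and Bcs1l at -0.077 instead of -0.16.

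**Figure D3:**
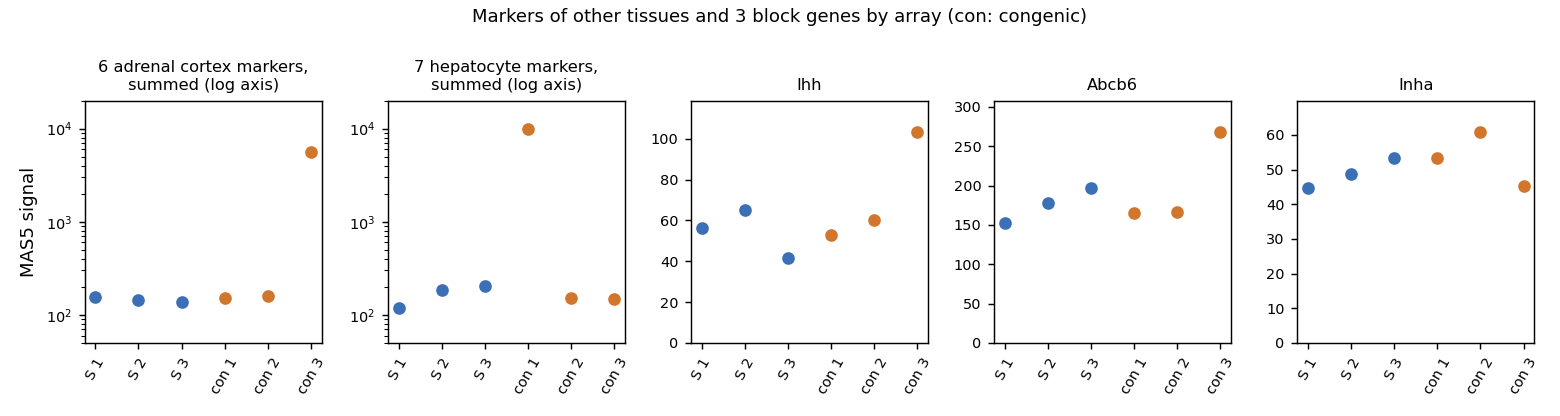
MAS5 signal by array of the summed adrenal cortex and hepatocyte markers (log axes) and of Ihh, Abcb6 and Inha (linear axes from 0), S arrays in blue and congenic arrays in orange. Adrenal markers stand out on congenic replicate 3 at 5541 and hepatocyte markers on congenic replicate 1 at 9970, while Ihh and Abcb6 are highest and Inha is the lowest congenic value on congenic replicate 3.

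The labelled tissue was borne out by its brush border genes, such as Pdzk1 at 1993 to 2491 over all arrays. The arrays were alike, with Spearman correlations of 0.976 to 0.987 across tested probe sets. Over the 42 member probe sets each array was the highest for 4 to 9 of them and the lowest for 5 to 9.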

How the data were processed

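MAS5 signals of 6 arrays were analysed, 3 pools of kidney RNA per strain. The deposited table holds intensities: linear MAS5 signals, a value for each probe set, according to the submitters' processing notes and to the numbers in it. MAS5 scales each array to one target. The 2% trimmed mean of each array was 150, and scaling of this kind hides any shift shared by most genes. The MAS5 version, its target and its detection calls are not given in the sources used here. Precision is limited by having 3 arrays per strain, with a median standard error of 0.106 (log2) over the tested probe sets.

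Gene symbols of the platform table were replaced by the current RefSeq symbol (GRCr8) of the same gene ID, which gave the same 60 member probe sets as the platform symbols alone. After 57 control probe sets were left out, the 18625 probe sets at or above the 40th percentile of mean log2(signal + 16) entered a limma fit (version 3.58.1, R 4.3.3; lmFit, then eBayes with trend). The p-values are 2-sided and Benjamini-Hochberg adjusted over all 18625. Adding 16 shrinks the fold changes of dim probe sets. An exact permutation test of 3 against 3 cannot go below 0.1, so none was used. In simulated data with independent normal noise and 200 of 18625 probe sets changed, the fit recovered 52% of 1.5-fold and 88% of 2-fold changes. False calls numbered 1 and 13. The real arrays gave 0 calls, and 2 of them carry transcripts of other tissues. These rates therefore do not give the power for a member here. The estimates for the 42 tested member probe sets lay between -0.23 and 0.30, on the log2 scale of signal + 16.

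A gene with several probe sets is given by the one with the highest mean. Resp18, Inha, Des, Tns1 and the 10 tested members with the smallest p are given by array, and 2 genes of each partner list are named by p, with others given where they bear on a result. The members, lists and alternatives were chosen with earlier results of these data known.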

Additional observations from a re-analysis of the deposited data

How the results depend on the processing

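For the 13 genes given by array, 12 of the alternatives can move a log2 fold change and gave 156 values, of which 155 had the sign reported. Another 6 change only the filter or the error and leave the folds as they are. None of the values of either kind reached an adjusted p under 0.05. The exception in sign was Tns1, at 0.043 without congenic replicates 1 and 3 together. Apart from Resp18, Inha and Tns1, these genes were chosen for the smallest p on the same arrays that the alternatives reuse. Members with smaller folds, such as Ctdsp1, Ptprn and Stk16, were not in the count of signs. That count therefore cannot show whether the signs would recur in other rats. No member passed limma's adjusted threshold under any alternative. Over all tested probe sets that count was 0 as reported and ranged from 0 to 3 when single arrays were left out, with 3 without S replicate 3 and 1 without congenic replicate 2. As reported, 1 of 42 member probe sets had an unadjusted p under 0.05, and after a stricter filter (60th percentile), which removed Des, 0 of 30. With no filter there were 4 of 60: Des and dim probe sets of Asic4, Dnajb2 and Aamp. The dim one of Dnajb2, at -0.45, was opposite in sign to its bright one, at 0.12. That of Aamp, at 0.26, had the sign of its brightest one, at 0.10. Of the 42, there were 2 with the linear model without moderation and 0 with the replicate block. When single arrays were left out there were 0 to 3. The matching share of the whole array is given only for the fit as reported. These counts are therefore no result about the block. The count of 7 negative cytoskeletal and muscle genes was followed under the same alternatives, a choice made after seeing the data, and was 5 of the 5 genes left by the stricter filter. The median over the member probe sets ranged from -0.024 to 0.0053 when single arrays were left out.

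Whether equal replicate numbers pair the samples is not settled, since the labels do not say so. Deviations from the strain means correlated at 0.043, 0.022 and 0.017 for equal numbers and at -0.052 to 0.036 for unequal ones. S replicates 1 and 2 correlated best with their own number, and S replicate 3 with congenic replicate 2. Deviations from a mean of 3 arrays are bound to balance, so these values cannot decide the question. The replicate block is given here as a setting and not as a pairing. Probe sets near the filter have signals close to the constant of 16, and their folds are limited by it.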
